A study of Mus musculus with 32 samples.

Results

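Translational efficiency, the ratio of polysome RNA to cytosolic RNA of a gene within a sample, was compared between stressed mouse embryonic fibroblasts (MEFs) with a late block of the kinase PERK and unstressed MEFs. The comparison used 16 of the 32 libraries of the series, chosen by the condition and the kind of RNA in their labels. It covered the 12561 genes that passed a filter on low counts. The inhibitor group consisted of MEFs exposed to thapsigargin for 16 h, with PERK inhibited over the last 4 h, and the control group of MEFs with 0 h of thapsigargin. Thapsigargin inhibits the pump that fills the endoplasmic reticulum (ER) with calcium, so that proteins misfold there. The 16 h thapsigargin condition without inhibitor is used below as a reference. The series also holds MEFs exposed to thapsigargin for 1 h. Their libraries entered the filter, the scaling and the shared estimate of spread behind the p-values, but were not compared here. Each condition had 4 samples, and each sample gave 2 libraries, one of cytosolic RNA and one of polysome RNA, the latter from the gradient fractions in which mRNAs carried more than 4 ribosomes. All groups were MEFs in high-glucose medium with serum. Which inhibitor was used and at what concentration, how much thapsigargin was given, the use of solvent, the mouse strain and whether the cells were 1 clone were not given in the sources used here.

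PERK senses misfolded protein in the ER and phosphorylates the initiation factor eIF2, which lowers translation of most mRNAs and raises that of mRNAs with suitable upstream open reading frames (ORFs), such as Atf4. The mRNAs of ribosomal proteins and elongation factors follow another known rule. They start with a cytosine and a run of pyrimidines, the terminal oligopyrimidine (TOP) motif, and their ribosome loading depends on the growth kinase mTORC1 and the binding protein LARP1.

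Annotated start sites of ribosomal protein and other listed TOP mRNAs are shown first, since nearly all mRNAs of this class had lower ratios in the inhibitor group. Only members with a TOP-like start, as defined below, could be shown, and the lines are the lowest and highest changes among them. Rpl3 and Eef1b2, whose changes are given below, were not among them. Each line gives 24 bases, 5′ to 3′, from the RefSeq start-site table (GRCm38.p6). Capitals mark a pyrimidine run that begins within 5 bases of the annotated start, before or after it. For Eef1a1 it begins 1 base before that start. For Naca it begins 5 bases before and is 5 bases long, so it lies wholly ahead of the annotated start. Whether the mRNAs begin at the annotated positions was not tested. The first 5 mRNAs had lower translational efficiency in the inhibitor group, with log2 changes of -1.97, -1.90, -1.85, -1.82 and -1.82 in the order shown, and the last 2 did not pass the test (-0.23 and -0.12).
Eef1a1, chr9:78481706-78481729, minus strand: ccctCTTCCCgagggtgggggaga
Eif3f, chr7:108934411-108934434, plus strand: ctctCTCTCTTTCTCggcaagatg
Rack1, chr11:48800356-48800379, plus strand: ctttCTTTTTCTCCacagggtcgt
Rps6, chr4:86857348-86857371, minus strand: gggcCTCTTTTTCgtgacgcctcc
Rpl13a, chr7:45128724-45128747, minus strand: aagaCCTCCTCCTTTCCCaggcgg
Rps27l, chr9:66946083-66946106, plus strand: gccgCCTCTatcccggaagttgct
Naca, chr10:128035337-128035360, plus strand: cgttCTCTTaaagaggaaacccgg
A TOP-like start was defined as C within 5 bases of the annotated start followed by at least 4 pyrimidines, on the sense strand. It was found in 28 of 59 ribosomal protein genes in the table (47.5%), in 6 of 16 genes of the list of other TOP mRNAs (37.5%) and in 2351 of 9845 of all tested genes (23.9%).

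The second set are short upstream ORFs, which lie in the 5′ UTR ahead of the coding sequence. They come from GENCODE M21 transcripts (GRCm38), and capitals mark the start and stop codon. Translational efficiency of these 3 mRNAs was higher than control at 16 h and lower than control in the inhibitor group.
Atf4, chr15:80255582-80255593, plus strand: ATGgcgtatTAG
Atf5, chr7:44816526-44816537, minus strand: ATGgctctgTAG
Ppp1r15a, chr7:45525851-45525868, minus strand: ATGgcttatttggtcTGA
The annotated 5′ UTR was 594 nt with 3 ATGs for Atf4, 373 nt with 2 for Atf5 and 764 nt with 7 for Ppp1r15a.

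Total counts ran from 28.28 to 35.64 M per control library, from 33.54 to 41.78 M in the inhibitor group and from 29.47 to 36.22 M at 16 h. Log2 ratios of any 2 control samples correlated at 0.87 to 0.944 across genes, those of the inhibitor group at 0.915 to 0.926 and those at 16 h at 0.72 to 0.891. Control samples 1 and 4 were more alike (0.944) than 1 and 3 (0.87), and same-numbered control and 16 h samples deviated together (0.233 to 0.542), while same-numbered control and inhibitor samples did not (-0.128 to 0.167). Fibroblast markers summed to 7920 to 10700 CPM (counts scaled to library size) in control and to 4010 to 4560 CPM in the inhibitor group, in cytosolic RNA. Epithelial markers stayed under 0.5 CPM in every control and inhibitor library (highest 0.428), endothelial ones reached 1.72, adipocyte ones 1.48 and leukocyte ones 14.4. Skeletal muscle markers summed to 6.21 to 9.89 CPM in control and 4.90 to 6.55 in the inhibitor group. Neural markers were at 42.5 to 49.8 CPM in control and at no more than 25.9 in the inhibitor group, and their part in the results was not tested. Nothing in the labels says that the 4 samples of a condition were separate cultures, so p-values cover only the spread among these samples, possibly a technical one. Every value is scaled to the rest of its library. Polysome loss shared by all transcripts is therefore not visible, and fewer cells of a type and less RNA per cell cannot be told apart.

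With late PERK inhibition, ribosomal protein and elongation factor mRNAs had lower ratios of polysome to cytosolic RNA than in unstressed cells, while the median of the 19 mRNAs listed for upstream ORFs lay near that of all genes. Of 12561 genes 5450 were called (43.4%), with edgeR's quasi-likelihood test and a Benjamini-Hochberg adjusted p under 0.05. Translational efficiency was higher for 2050 genes (16.3%) and lower for 3400 (27.1%), and 1.07% and 2.74% of genes changed at least 2-fold up and down. The 4 ratios of the inhibitor group lay above all 4 of control for 1925 genes (15.3%) and below them for 3235 (25.8%). The median gene changed by -0.121 on the log2 scale. Against the same control samples, 16 h without inhibitor gave 3910 genes higher (31.1%) and 4151 lower (33.0%), of which 1670 and 1216 changed at least 2-fold. Between the inhibitor group and 16 h, 3317 genes were higher (26.4%) and 4233 lower (33.7%). These 3 comparisons share samples, so their values are given side by side and were not correlated.

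The split of calls into higher and lower moved with the scaling. It was 2623 higher and 2605 lower with DESeq2 size factors in the same model, 2547 and 2595 with DESeq2 itself, and 2619 and 2438 with offsets corrected for coding length. Partial variance, a regression of polysome level on condition with the cytosolic level of the same gene beside it, gave 3380 and 3640. Its median slope on the cytosolic level was -0.0255, so for the median gene it takes almost nothing off for the cytosolic change, and many lists turn with it. These settings shifted the median of all genes by 0.082, 0.081, 0.103 and 0.132, so the direction of a list with a median near -0.1 depends on the scaling.

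**Figure D1:**
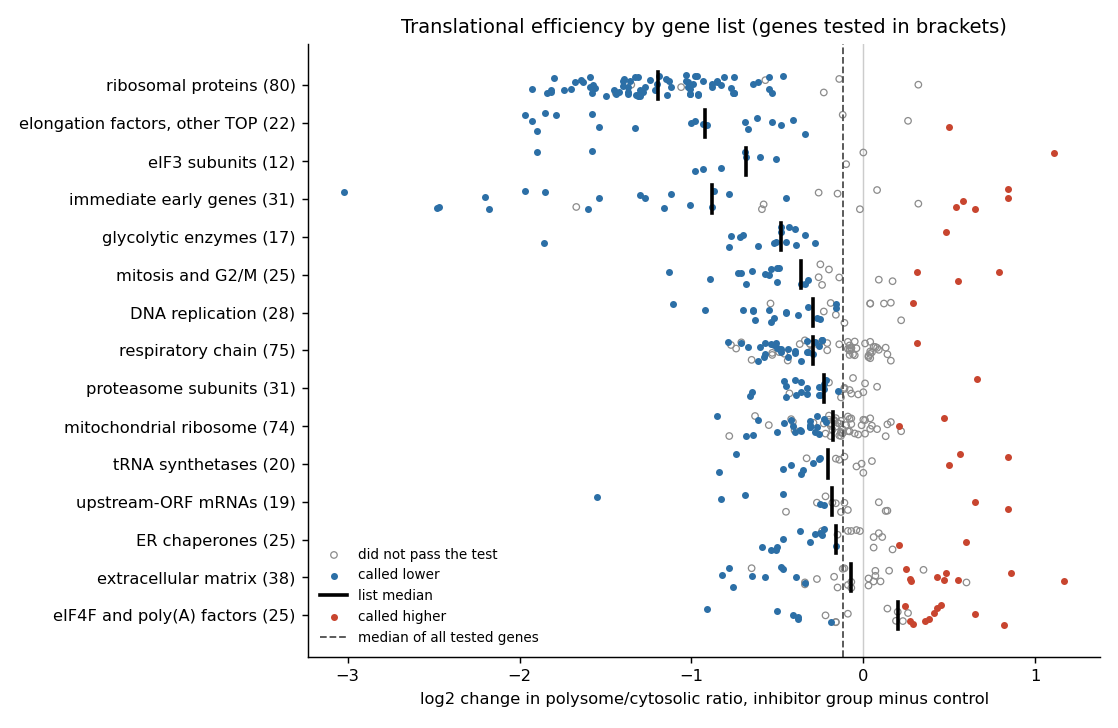
Log2 change in translational efficiency, inhibitor group minus control, for the members of 15 gene lists (1 point per gene, scattered vertically for visibility). Filled points were called, black bars are list medians, and the dashed line is the median of all tested genes (-0.121). Ribosomal protein and other TOP mRNAs lie farthest to the left as groups, with medians of -1.20 and -0.92.

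Ribosomal protein mRNAs had lower translational efficiency in the inhibitor group than in control. Of 80 tested, 73 were lower and 0 higher, against 27.1% lower among all genes, with a median change of -1.20. The median log2 ratio of the list was 0.17, -0.09, -0.28 and 0.04 in the 4 control samples and -1.30, -1.07, -1.16 and -1.23 in the inhibitor samples. The groups did not overlap, and the 16 h samples without inhibitor lay in the same low range, at -1.04, -1.26, -1.37 and -1.11. At 16 h 66 of the 80 were lower than control and 1 higher, also with a median of -1.20, where 33.0% and 31.1% of all genes were. Between the inhibitor group and 16 h 20 were higher and 11 lower (median 0.07), against 26.4% and 33.7% of all genes. The 4 ratios of the inhibitor group lay below all 4 control ratios for 69 of the 80, against 25.8% of all genes.

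The lower ratios of ribosomal protein mRNAs went with more cytosolic and less polysome RNA. In cytosolic RNA 76 of 80 rose against control and 1 fell (median 0.78), where 38.1% of 12366 genes rose and 35.2% fell. In polysome RNA 53 fell and 2 rose (median -0.39), where 40.3% of 12065 genes fell and 36.8% rose. Rpl3, a large subunit protein at the peptidyl transferase centre, had log2 ratios of 1.64, 1.60, 1.62 and 1.56 in control and -0.32, -0.42, -0.30 and -0.23 in the inhibitor group. The 2 groups were far apart relative to their spread, with a change of -1.93 ± 0.0601 (SE, adjusted p = 2.19e-13 by edgeR). Its cytosolic RNA went from 676 ± 9.62 to 1220 ± 51.2 CPM (SD, n = 4), and its polysome RNA from 2060 ± 41.1 to 977 ± 14.8 CPM. Rps6, the small subunit protein phosphorylated downstream of mTORC1, fell 3.53-fold in translational efficiency, Rps7 by 1.70 and Rpl14 by 1.58 on the log2 scale. Small and large subunit mRNAs had similar medians, -1.24 (32 mRNAs) and -1.17 (48).

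The change was graded by coding length within the class. Median changes were -0.77 for the 17 ribosomal protein mRNAs with coding sequences up to 350 nt, -1.02 for the 33 of 351 to 500 nt, -1.43 for the 16 of 501 to 700 nt and -1.48 for the 14 of 701 to 1500 nt. The fractions collected held mRNAs with more than 4 ribosomes, which short coding sequences can carry only when densely loaded, and the part of this in the gradient was not tested. With offsets corrected for coding length 72 of the 80 were lower (median -1.09). The 7 mRNAs that did not pass the test were Rps27l (-0.23), Rpl36al (-0.14), Rpl41 (-0.57), Rpl29 (0.32, at under 1 CPM), Fau (-1.06), Rplp1 (-1.35) and Rpl36 (-1.44). The last 2 varied widely within groups: log2 ratios of Rplp1 ran from -2.04 to 0.15 in control and from -2.52 to -1.60 in the inhibitor group. Without control sample 3, Fau, Rplp1, Rpl36 and Rpl41 passed the test (-1.32, -1.71, -1.83 and -0.78), as did Fau without inhibitor sample 2 (-1.20) and Rps27l without control sample 1 (-0.33). Calls were also lost: with each sample left out in turn, the lower count ran from 69 (without control sample 4) to 77 (without control sample 3). The 34 ribosomal protein and other TOP mRNAs with a TOP-like start had a median of -1.14 and the 41 without one -1.12. Among genes outside these lists the median was -0.13 with a TOP-like start (2317 genes) and -0.11 without one (7453 genes). By partial variance 20 of the 80 were lower and 1 higher (median -0.27), and the cause was not tested. Single ribosomal protein values are uncertain because reads can be shared with processed pseudogenes.

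**Figure D2:**
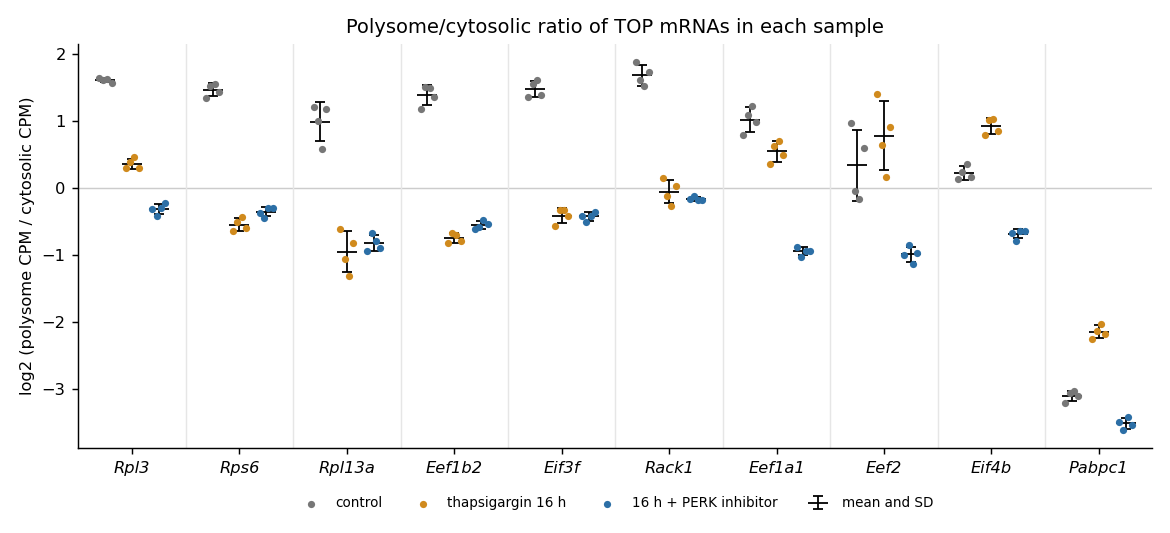
Log2 ratio of polysome to cytosolic RNA of 10 TOP mRNAs in each of 4 samples per condition (points), with mean and SD. For the mRNAs from Rps6 to Rack1 the 16 h and the inhibitor samples are both low, while for Eef2, Eif4b and Pabpc1 the 16 h samples lie above the inhibitor samples by 1.36 to 1.77 on the log2 scale.

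Elongation factors and other TOP mRNAs were also lower against control, in an order of the 3 conditions that differed between members. Of 22 tested, 19 were lower and 1 higher (median -0.92), and at 16 h 17 were lower and 4 higher (median -0.84). Among all genes 27.1% were lower and 16.3% higher, and at 16 h 33.0% and 31.1%. Eef1a1, which encodes the factor that delivers aminoacyl-tRNA to the ribosome, had log2 ratios of 0.78, 1.08, 1.22 and 0.98 in control, 0.35, 0.62, 0.70 and 0.49 at 16 h, and -0.88, -1.03, -0.94 and -0.95 in the inhibitor group. The 3 conditions were ordered without overlap. Its translational efficiency was 3.91-fold lower than control (-1.97 ± 0.089, adjusted p = 1.46e-11) and changed by -1.49 from 16 h to the inhibitor group (adjusted p = 8.78e-11), both by edgeR. Cytosolic Eef1a1 RNA rose from 6320 ± 619 to 11800 ± 777 CPM (SD, n = 4), while its polysome RNA fell from 12800 ± 878 to 6110 ± 195 CPM.

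Some TOP mRNAs were above control at 16 h and below it in the inhibitor group. Eif4b, an initiation factor that helps unwind 5′ UTRs, had log2 ratios of 0.13, 0.23, 0.36 and 0.16 in control, 0.78, 1.01, 1.03 and 0.85 at 16 h, and -0.68, -0.79, -0.64 and -0.65 in the inhibitor group. Its change was -0.91 ± 0.0695 against control (adjusted p = 2.27e-08 by edgeR) and -1.61 against 16 h, while at 16 h it had been 0.70. Pabpc1, the cytoplasmic poly(A)-binding protein, followed the same order at lower ratios, with changes of -0.41 against control, 0.95 at 16 h and -1.36 between inhibitor group and 16 h. For Eef2, the translocase of elongation, control ratios were 0.96, -0.05, -0.17 and 0.59 and inhibitor ratios -1.01, -0.86, -1.14 and -0.97, a change of -1.33 ± 0.26 (adjusted p = 0.000984 by edgeR). Control samples of Eef2 split as the correlations above did, with samples 1 and 4 high and 2 and 3 low, but all lay above the inhibitor samples. By partial variance Eef2 and Pabpc1 turned to 0.28 and 0.16. Eef2, Rack1, Rps6, Rpl13a and the genes named because they missed the test were chosen after their values were seen.

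Other TOP mRNAs were low in both stressed conditions. Eef1b2, the exchange factor of Eef1a1, changed by -1.93 in the inhibitor group and by -2.13 at 16 h, Tpt1 by -1.79 and -1.94, and Rack1, a scaffold protein of the small subunit, by -1.85 and -1.74. Rack1 ratios were 1.87, 1.60, 1.51 and 1.73 in control and -0.17, -0.12, -0.19 and -0.19 in the inhibitor group. Ncl, which encodes the nucleolar protein nucleolin, was the exception, with a higher ratio in both (0.50 and 1.43), and Naca and Eif4a2 did not pass the test (-0.12 and 0.26), although Eif4a2 was called without control sample 2 or 3 (0.30 and 0.34). By partial variance 10 of the 22 were lower and 0 higher (median -0.30).

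Of 12 subunits of eIF3, the scaffold of the initiation complex, 9 were lower and 1 higher (median -0.69), against 27.1% and 16.3% of all genes. Eif3e, Eif3f, Eif3h, Eif3k and Eif3l are also on the list of other TOP mRNAs above, so the 2 counts overlap. Eif3f (-1.90), Eif3h (-1.58) and Eif3i (-0.83) were lower, all without overlap between groups. Eif3a, the largest subunit, had ratios of -2.60, -2.26, -2.13 and -2.49 in control and -1.24, -1.38, -1.26 and -1.16 in the inhibitor group, 2.16-fold higher (adjusted p = 1.94e-07 by edgeR). Eif3b and Eif3c did not pass the test (-0.10 and 0.00). At 16 h 8 subunits were lower and 2 higher (median -1.02), with Eif3a at 2.55, where 33.0% and 31.1% of all genes were. By partial variance 3 subunits were lower and 2 higher, and Eif3b turned to 0.24.

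**Figure D3:**
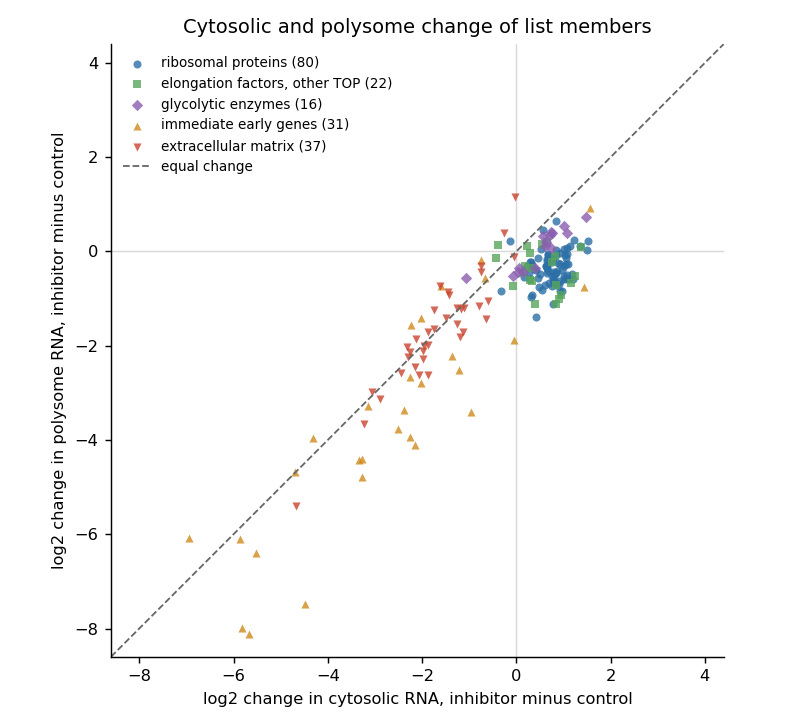
Log2 change in polysome RNA (y) against log2 change in cytosolic RNA (x), inhibitor group minus control, for members of 5 gene lists tested in both kinds of RNA; the dashed line marks equal change. Most ribosomal protein, other TOP and glycolytic mRNAs lie right of 0 and below the line, while most immediate early mRNAs fell in both kinds of RNA and lie below the line. The lowest immediate early changes (-9.31 in cytosolic and -9.87 in polysome RNA) lie outside the axes and are not shown.

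Members of the list of known upstream ORF mRNAs had a median close to control in the inhibitor group. Of 19 tested, 2 were higher and 6 lower (median -0.18, against -0.121, 16.3% higher and 27.1% lower for all genes), whereas at 16 h 12 were higher and 3 lower (median 0.68). Between the inhibitor group and 16 h 13 were lower and 2 higher (median -0.82). Among all genes 31.1% were higher and 33.0% lower at 16 h, and 33.7% were lower and 26.4% higher between the inhibitor group and 16 h. Against control the count became 3 higher and 4 lower with offsets for coding length (median -0.07) and 6 and 6 by partial variance (median -0.35). Atf4, the transcription factor at the centre of this response, had log2 ratios of -1.93, -1.89, -1.92 and -1.95 in control, 0.52, 0.55, 0.54 and 0.54 at 16 h, and -2.08, -2.15, -2.16 and -2.23 in the inhibitor group. The inhibitor samples lay just below control, by 1.17-fold (-0.23 ± 0.0512, adjusted p = 0.00153 by edgeR), against a log2 change of 2.47 at 16 h. This small difference did not pass the test with offsets for coding length (-0.08, adjusted p = 0.22 by edgeR) or by partial variance (-0.35, adjusted p = 0.615 by limma). Cytosolic Atf4 RNA was 450 ± 9.32 CPM in control and 286 ± 2.15 CPM in the inhibitor group (SD, n = 4), and polysome RNA fell by 0.93 on the log2 scale to 64.2 ± 2.98 CPM.

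Other members of the class lay near or below control. Ddit3, which encodes the transcription factor CHOP, had ratios of -1.69, -2.02, -1.78 and -1.61 in control and -2.05, -1.84, -2.02 and -1.86 in the inhibitor group. These overlapped, and the change of -0.16 ± 0.114 did not pass the test (adjusted p = 0.279 by edgeR), against 1.85 at 16 h. Ppp1r15a, a stress-inducible regulator of eIF2 dephosphorylation, went below control, from -0.76, -0.93, -0.73 and -0.95 to -1.47, -1.61, -1.65 and -1.41, a change of -0.69 ± 0.0778 (adjusted p = 2.06e-06 by edgeR), after 1.42 at 16 h. Its constitutive counterpart Ppp1r15b was also lower (-0.83), and stood at -0.07 at 16 h. Atf5, a relative of Atf4, changed by -0.47 after 1.83 at 16 h. Ifrd1, a transcriptional coregulator, stood at -0.27 (adjusted p = 0.0619 by edgeR) after 1.82, and was called when control sample 1 or inhibitor sample 3 was left out (-0.36 and -0.32). By partial variance Ddit3, Atf5 and Slc35a4, whose cytosolic RNA was higher than in control, turned to 1.01, 0.57 and 0.60.

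A pair of the class stayed above control. Eprs, the glutamyl-prolyl-tRNA synthetase, had ratios of -1.39, -1.09, -0.97 and -1.20 in control and -0.24, -0.42, -0.32 and -0.30 in the inhibitor group. It was 1.79-fold higher than control (adjusted p = 1.64e-06 by edgeR), between control and 16 h (2.15). Uhmk1, a kinase, was higher by 0.65 with 1 inhibitor ratio inside the control range, and did not differ between inhibitor group and 16 h at the threshold (-0.20, adjusted p = 0.33 by edgeR). Bace1 was lower (-0.25) in this fit and not called with DESeq2 size factors (-0.17), and Prkch was lower (-1.55) at under 1 CPM of cytosolic RNA in both groups (0.720 and 0.622). The 9 other members that did not pass ranged from -0.45 (Cebpa) to 0.14 (Ibtk), with Slc35a4 at -0.13, Mief1 at 0.13, Slc7a1 at -0.09, Cebpb at -0.22, Nfe2l2 at -0.18, Cdkn1a at -0.11 and Hspa5 at 0.09. Nfe2l2 was called without control sample 1 (-0.26). The annotated 5′ UTRs used here hold 0 ATGs for Eprs, Cebpb and Nfe2l2. Over all genes the median change against control was -0.14 with no ATG in the annotated 5′ UTR (5943 genes) and -0.05 with 6 or more (748 genes), where the same bins had -0.10 and 0.28 at 16 h. Against control 29.0% of the genes with no ATG were lower and 14.8% higher, and of those with 6 or more 19.8% were lower and 20.7% higher.

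**Figure D4:**
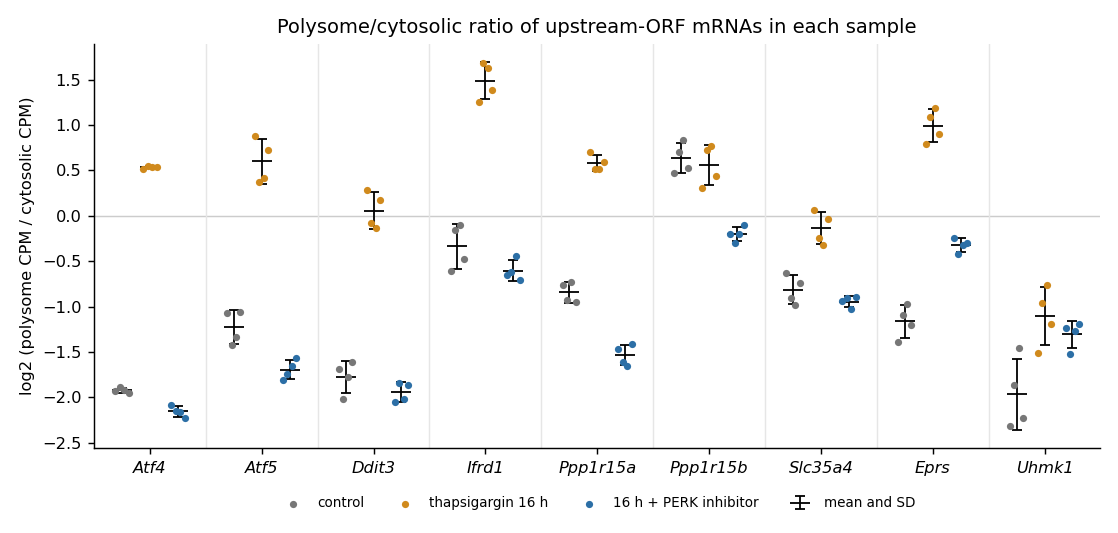
Log2 ratio of polysome to cytosolic RNA of 9 members of the upstream ORF list in each of 4 samples per condition (points), with mean and SD. The inhibitor samples lie near or below control for Atf4, Atf5, Ddit3, Ifrd1, Ppp1r15a and Slc35a4, and below it for Ppp1r15b. All inhibitor samples lie above control for Eprs, and those of Uhmk1 overlap control.

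The ER stress panel had 14 genes, of which 1 was higher and 8 lower in translational efficiency, against 16.3% and 27.1% of all genes. Besides Atf4, Ppp1r15a and Ppp1r15b the lower ones included Herpud1 (-0.77), a component of ER-associated degradation, Trib3 (-1.09), a pseudokinase, and Atf3 (-0.78), a stress-induced transcription factor. The others were Asns (-0.55), asparagine synthetase, and Eif2ak3 (-0.48), which encodes PERK. Slc7a11, the cystine transporter, was higher by 0.34, a call lost when control sample 1 or 4 or inhibitor sample 1 or 3 was left out (0.28 to 0.34). By partial variance Slc7a11 turned to -2.74 and Eif2ak3 to 0.21. Cytosolic Slc7a11 RNA had fallen by 3.22 on the log2 scale. Hspa5, which encodes the ER chaperone BiP, kept high RNA levels at a ratio near control. Its log2 ratios were -0.08, 0.29, 0.46 and 0.19 in control and 0.29, 0.27, 0.36 and 0.30 in the inhibitor group, while cytosolic RNA went from 846 ± 72.6 to 6010 ± 350 CPM (SD, n = 4). Dnajb9, an ER cochaperone, Xbp1, a stress transcription factor activated by splicing, and Chac1, a glutathione-degrading enzyme, did not pass the test (0.17, -0.03 and -0.34), although Chac1 was called without control sample 3 (-0.44). The sign of Xbp1 turned with DESeq2 size factors (0.06), and that of Hspa5 without control sample 1 (-0.01). By partial variance Hspa5, Dnajb9 and Chac1 were called, at 3.46, 2.25 and -1.47 (adjusted p = 0.00279, 0.00109 and 0.00135 by limma). Of 25 ER chaperones and folding enzymes 12 were lower and 2 higher, where 27.1% and 16.3% of all genes were. They included Pdia5 at -0.59 and Hsp90b1, the ER form of Hsp90, at 0.60. With DESeq2 size factors 7 chaperones were lower and 2 higher, where 2605 and 2623 of all 12561 genes were.

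Of 31 immediate early genes tested, which are induced within minutes of a growth signal, 18 were lower and 5 higher (median -0.88). Among all genes 27.1% were lower and 16.3% higher. At 16 h 12 of the list were lower and 9 higher (median -0.21), where 33.0% and 31.1% of all genes were. The list made up 6 of the 12 lowest changes. Those 12 came from genes with no overlap between groups and at least 5 CPM in each kind of RNA, as a mean over both groups. Nr4a1 in polysome RNA and Fos reached this mean through the control samples. The list's median log2 ratio was 0.83, 0.58, 0.49 and 0.84 in control and -0.24, 0.05, -0.19 and -0.17 in the inhibitor group. Their RNA was also much lower: 28 of 31 fell in cytosolic RNA (median -2.38), where 35.2% of all genes fell, and 29 in polysome RNA (median -3.77), where 40.3% fell. By partial variance 24 were lower and 0 higher (median -3.48). Nr4a1, an orphan nuclear receptor, had ratios of 2.38, 1.63, 1.49 and 2.16 in control and -1.01, -0.63, -1.35 and -1.39 in the inhibitor group, 8.14-fold lower, at 488 ± 78.3 and 2.80 ± 0.33 CPM of polysome RNA (SD, n = 4). Egr1 (-2.18), Fos (-2.48), Ier2 (-1.97) and Cyr61 (-1.54) were lower too. Fos was below 1 CPM in the inhibitor group in both kinds of RNA (0.421 and 0.229), so its ratio there rests on few counts.

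Dusp1, a MAP kinase phosphatase, differed from these in that its cytosolic RNA had risen. It went from 25.3 ± 0.75 to 71.4 ± 1.67 CPM in cytosolic RNA and from 50.8 ± 2.27 to 31.2 ± 1.12 CPM in polysome RNA (SD, n = 4). Its log2 ratios were 1.07, 1.10, 0.98 and 0.88 in control, 0.50, 0.28, 0.22 and 0.24 at 16 h, and -1.27, -1.15, -1.23 and -1.12 in the inhibitor group, 4.59-fold below control (adjusted p = 3.72e-13 by edgeR). By partial variance its change was 0.04. Zfp36, which encodes an mRNA-destabilizing protein, had the same order of conditions, 5.54-fold below control and by -1.31 below 16 h (adjusted p = 6.21e-05 by edgeR). Maff, a small MAF protein, was among the 5 that were higher (0.65, but -1.55 by partial variance). The other low extremes were Pcyox1l (-2.44), Dpp7, a lysosomal peptidase (-2.08), and Pbxip1 (-1.92), beside the TOP mRNAs Eef1a1, Eef1b2 and Rpl3.

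The 12 highest changes by the same criteria of level and overlap ran from 1.30 to 2.51. They were Avil (2.51), an actin-binding protein, Apobr (1.72), Prkg2 (1.68), a cGMP-dependent kinase, Aoc2 (1.65), Srek1 (1.44), Homer1 (1.41), a scaffold protein, Pdlim5 (1.39), Zfp945 (1.37), Ank2 (1.36), an ankyrin, Fmn1 (1.36), a formin, Gnl2 (1.33) and the nucleoporin Ranbp2 (1.30). For 8 of them, Avil, Srek1, Pdlim5, Zfp945, Ank2, Fmn1, Gnl2 and Ranbp2, the 4 inhibitor ratios lay below all 4 ratios at 16 h. The share of all genes without overlap against 16 h was not counted, so whether 8 of 12 is unusual cannot be judged. Among all genes 33.7% were called lower and 26.4% higher than at 16 h. Ranbp2, for example, had ratios of -3.63, -3.06, -3.08 and -3.35 in control, -0.39, 0.14, 0.22 and -0.20 at 16 h, and -1.98, -1.98, -1.90 and -2.06 with the inhibitor. The ratios of Apobr, Aoc2 and Homer1 lay above those at 16 h as well as control, and those of Prkg2 overlapped 16 h. Aoc2, an amine oxidase gene, had ratios of -1.26, -1.41, -1.29 and -1.48 in control, -0.64, -1.07, -0.97 and -0.85 at 16 h, and 0.26, 0.23, 0.37 and 0.28 with the inhibitor, a further change of 1.17 from 16 h (adjusted p = 1.04e-08 by edgeR). Avil reached a mean of 5 CPM through the inhibitor samples (10.7 to 13.7 CPM of polysome and 9.48 to 11.4 CPM of cytosolic RNA). In control it had means of 0.317 and 1.56 CPM, so its ratio there rests on few counts.

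Glycolytic enzymes were mostly lower. Of 17 tested, 16 were lower and 1 higher (median -0.48), where 27.1% and 16.3% of all genes were. The count of lower ones was 14 with DESeq2 size factors, and 12 with coding length offsets or without control sample 1. In cytosolic RNA 11 rose and 1 fell (median 0.60), where 38.1% of all genes rose and 35.2% fell. Gpi1, glucose-6-phosphate isomerase, had log2 ratios of 1.49, 1.23, 1.29 and 1.38 in control and 0.61, 0.56, 0.50 and 0.64 in the inhibitor group, 1.71-fold lower (adjusted p = 1.62e-07 by edgeR). Pfkm and Tpi1 were lower by 0.61 and 0.45, and the exception was Hk2, a hexokinase (0.48). At 16 h 9 were lower and 6 higher (median -0.19), where 33.0% and 31.1% of all genes were. By partial variance 5 were lower and 3 higher, and the median turned to 0.08, Tpi1 to 0.08 and Hk2 to -0.27.

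Proteasome subunits and nuclear-encoded mitochondrial mRNAs, low at 16 h, lay nearer to control in the inhibitor group. Among all genes 27.1% were lower and 16.3% higher than control in the inhibitor group, and 33.0% and 31.1% at 16 h. Between the inhibitor group and 16 h, 26.4% of all genes were higher and 33.7% lower. Of 31 proteasome mRNAs 18 were lower and 1 higher (median -0.23), against 27 and 1 at 16 h (median -1.13). The list's median ratio was 1.49, 1.80, 1.71 and 1.62 in control, 0.40, 0.49, 0.55 and 0.55 at 16 h, and 1.41, 1.41, 1.44 and 1.39 with the inhibitor, and 24 were higher and 2 lower than at 16 h. Those still lower included Psmc3 (-0.65), an ATPase of the base, and Psmd4 (-0.66), a ubiquitin receptor, and Psmd1, the largest base subunit, was higher (0.66). Of 74 mitochondrial ribosomal proteins 21 were lower and 2 higher (median -0.18), a share lower close to the 27.1% of all genes, with Mrpl47 at -0.85, against 56 and 2 at 16 h, and 50 were higher and 5 lower than at 16 h. Of 75 nuclear-encoded respiratory chain subunits 28 were lower and 1 higher (median -0.29), with Atp5a1 of the ATP synthase at -0.67, against 46 and 3 at 16 h, and 38 were higher and 11 lower than at 16 h. With DESeq2 size factors 12 proteasome, 13 mitochondrial ribosomal and 21 respiratory chain mRNAs were lower, and by partial variance 6, 8 and 15 were lower and 7, 21 and 17 higher, with the medians of the last pair of lists turning to 0.31 and 0.16.

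Extracellular matrix mRNAs, high on polysomes at 16 h, had no common direction against control. Of 38 tested, 9 were higher and 9 lower (median -0.07, which turned to 0.01 with DESeq2 size factors), against 25 and 5 at 16 h (median 1.28). Among all genes 16.3% were higher and 27.1% lower against control, and 31.1% and 33.0% at 16 h. The list had a median coding length of 3699 nt. Of all genes with coding sequences over 3000 nt, 64.8% were higher and 9.55% lower at 16 h. Tenascin (Tnc), with ratios of -1.28, -1.41, -1.13 and -1.31 in control and -0.40, -0.67, -0.36 and -0.28 with the inhibitor, stayed higher by 0.86, as did fibronectin (Fn1, 0.55) and periostin (Postn, 1.17). Biglycan (Bgn, -0.65) and the protease Mmp2 (-0.57) were lower. Cytosolic RNA of 34 of the 37 matrix genes tested there had fallen and that of 0 had risen, where 35.2% of all genes fell and 38.1% rose. By partial variance 25 of the list were lower and 1 higher, with Tnc at -1.41 and Fn1 at -1.25. Vinculin (Vcl, 0.91) was higher among the contractile genes and Actg1 (-0.49) and Acta2 (-0.48) were lower. That list had 5 higher and 8 lower of 27, close to the shares of all genes. Its count became 9 and 6 with DESeq2 size factors and 1 and 19 by partial variance, where Vcl was -0.40.

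Lower calls outnumbered higher ones among genes of the cell cycle, as they did among all genes. The counts in this and the next paragraph stand against 27.1% of all genes lower and 16.3% higher. Of 25 genes of mitosis 15 were lower and 3 higher (median -0.36), with the kinase Aurkb at -0.89, the checkpoint target Cdc20 at -0.68 and the kinesin Cenpe at 0.79 (-0.29 by partial variance). Of 28 DNA replication genes 17 were lower and 1 higher (median -0.30), with the primase subunit Prim2 at -0.92. Cytosolic RNA of 26 of the 28 had risen, where 38.1% of all genes rose. The replication count in translational efficiency became 12 lower and 2 higher with DESeq2 size factors and 11 and 2 with offsets for coding length. By partial variance it was 0 lower and 10 higher. Of 20 cytosolic tRNA synthetases 9 were lower, Sars (-0.84) and Qars (-0.74) among them, and 3 higher, which were Eprs, Lars (0.56) and Iars (0.50, but -0.70 by partial variance). Among 15 amino acid transporters 8 were lower, including Slc1a5 (-1.37) and Slc1a4 (-0.86), and 3 higher, including Slc7a3 (1.21, at under 1 CPM of polysome RNA), and with offsets for coding length 4 were lower. Of the factors around eIF2, 9 of 22 were lower and 6 higher, with Eif2d at -0.64 (0.09 by partial variance), Eif5 at 0.83 and Eif5b at 0.54, a split that became 7 lower and 8 higher with DESeq2 size factors and 5 and 10 by partial variance. Of 25 eIF4F and poly(A) factors 10 were higher and 6 lower.

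In the secretory pathway 19 of 39 translocation and glycosylation genes were lower and 2 higher, with the oligosaccharyltransferase subunit Rpn2 at -0.44 and Ssr4 at -0.60, and with DESeq2 size factors 13 were lower. Of 36 ER to Golgi transport genes 14 were lower and 6 higher, with the retrieval receptor Kdelr1 at -0.51 and the coat protein Sec24a at 0.70, and the count became 8 and 8 with DESeq2 size factors. ER-associated degradation had 10 lower and 2 higher of 21 (8 and 5 with DESeq2 size factors). ATF4 and CHOP targets had 17 lower and 5 higher of 33, with 12 lower by DESeq2 size factors, 11 by offsets for coding length and 21 by partial variance, and 5 higher each time. Heat shock proteins had 4 lower and 4 higher of 19. The list of NRF2, glutathione and thioredoxin defence genes had 8 lower and 5 higher of 23 (5 and 7 with DESeq2 size factors). Gclm and Gclc, the subunits of the glutathione synthesis enzyme, were higher (0.87 and 0.79), and Gpx4 (-0.80) and Txnip (-0.66) were lower. Cytosolic Txnip RNA had risen by 3.59 on the log2 scale. Against 27.1% of all genes lower and 16.3% higher, 10 of 27 autophagy genes were lower and 4 higher, with the ER-phagy receptor Fam134c at -1.24. Of 18 NF-kB and inflammatory genes 8 were lower and 1 higher, with the chemokine Cxcl1 at -1.34. Cholesterol and fatty acid synthesis genes had 11 lower and 3 higher of 26. Interferon genes had 8 lower and 3 higher of 22, with Bst2 at -0.88 and Mx2 at 1.18. With DESeq2 size factors these 4 lists had 7, 6, 7 and 5 lower, and with offsets for coding length 6, 6, 8 and 3. Of 13 mitochondrial chaperones and proteases 5 were lower and 2 higher. By partial variance the counts turned to mostly higher for ER chaperones (16 higher, 2 lower), translocation (18 and 6), ER to Golgi transport (21 and 4), degradation (10 and 4), heat shock proteins (10 and 0), autophagy (11 and 4) and interferon genes (14 and 2), most of whose members had risen in cytosolic RNA. Txnip, Bst2, Gpx4 and Gclc turned to 3.78, 0.71, 0.01 and -0.03.

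Median changes against control lay between -0.19 and 0.03 over bins of coding length in the inhibitor group, and between -0.46 and 0.86 at 16 h. In the inhibitor group they were -0.13 for coding sequences up to 400 nt (584 genes), -0.04 for 401 to 600 nt, -0.10 for 601 to 900 nt, -0.19 for 901 to 1500 nt, -0.14 for 1501 to 3000 nt and 0.03 over 3000 nt (1717 genes). In the 16 h comparison the same bins had medians of 0.13, -0.29, -0.46, -0.33, 0.21 and 0.86. Between the inhibitor group and 16 h they were -0.31, 0.23, 0.38, 0.15, -0.36 and -0.88. For ribosomal protein mRNAs, whose medians in the inhibitor group are given above, those at 16 h were -0.44, -1.11, -1.74 and -1.71 from the shortest to the longest bin.

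**Figure D5:**
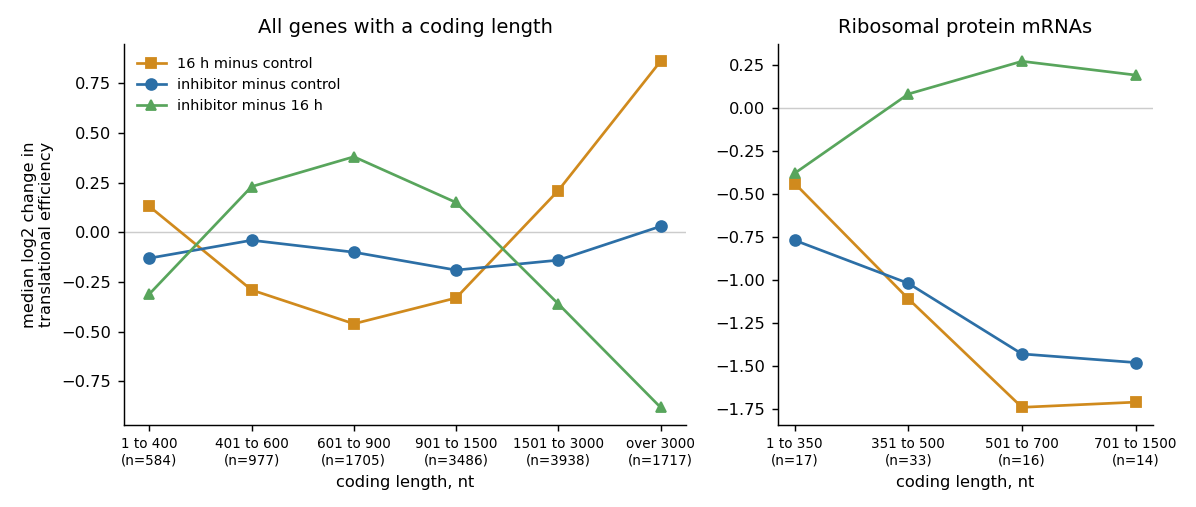
Median log2 change in translational efficiency by coding length for all genes with a coding length (left) and for ribosomal protein mRNAs (right), in 3 comparisons; n is the number of genes per bin, and the vertical axes differ. On the left the line of the inhibitor group against control stays between -0.19 and 0.03, and on the right it falls from -0.77 to -1.48.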

How the data were processed

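The data were read counts per gene from RNA sequencing of cytosolic and polysome RNA of 16 MEF samples, 4 samples in each of 4 conditions, in 1 table of 32 libraries. The table holds unnormalized counts as deposited by the authors, with no column left unused. The submitters' processing notes name HISAT, DESeq2 1.9.23 and the mm10 build, without their roles. How reads were assigned to genes, the use of strand and the annotation were not given in the sources used here. Overlapping genes, antisense genes and near-identical copies may therefore share reads. Depth is given by total counts per library, and 3234 genes had 0 counts throughout.

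Genes with low counts were removed (filterByExpr, minimum count 10, minimum total 15), and TMM factors were computed. Translational efficiency was fitted over all 32 libraries with edgeR 4.0.16 (R 4.3.3), as the interaction of polysome RNA with condition beside a term for each of the 16 samples (12 residual degrees of freedom), by the robust quasi-likelihood test with Benjamini-Hochberg adjustment over all genes. The sample term rests on the study's design, since both libraries of a sample come from the same cells, and the deviations of those libraries correlated at -0.316 to 0.16. Cytosolic and polysome RNA were also fitted alone, over 16 libraries each. All these fits included the libraries of 1 h of thapsigargin. Ratios by sample are log2 CPM of polysome minus cytosolic RNA with a prior count of 2, and CPM values use the same factors. The alternatives were DESeq2 size factors, DESeq2 1.42.0, no filter, the replicate number as a block, no sample term, offsets corrected for coding length (98.8% of tested genes had one), partial variance with limma 3.58.1, only the 2 conditions compared, and leaving out each sample. The code was tested on simulated data.

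Named genes were 14 ER stress genes, the 19 genes of the upstream ORF list, the 12 highest and 12 lowest called changes with a mean over both groups of at least 5 CPM in each kind of RNA and no overlap between groups, and up to 3 called members per direction of every other list. The comparison and the gene lists were chosen with earlier results of these data known. A result on 1 gene is not reported here.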

Additional observations from a re-analysis of the deposited data

Results flagged for a closer look

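In 15 of 248 groups of 4 ratios (the named genes in control and in the inhibitor group, 6.05%), a single sample stood apart from the other 3 by Dixon's criterion (the gap to the nearest sample over the range), which chance meets in about 1 of 20 groups. All values are log2 ratios of polysome to cytosolic RNA, each with its nearest neighbour. In control, Apobr was lowest in sample 2 (-1.61, next -1.25) and Eif3i highest in sample 1 (1.91, next 1.76). In the inhibitor group sample 2 was the lowest for Slc7a1 (0.33, next 0.51), Pdlim5 (-0.36, next -0.18) and Iars (0.16, next 0.29), and the highest for Ier2 (0.30, next -0.43), Fau (-0.26, next -0.79) and Rplp1 (-1.60, next -2.47). Sample 3 of that group was the highest for Prkg2 (-0.58, next -0.71), Dpp7 (-0.67, next -0.83), Eif5 (0.12, next 0.02) and Fam134c (-0.20, next -0.26). Sample 4 was the highest for Apobr (0.71, next 0.32) and the lowest for Gclc (0.34, next 0.42), and sample 1 the highest for Hk2 (0.17, next 0.10). The calls of Apobr, Prkg2, Pdlim5, Dpp7, Ier2, Eif3i, Eif5, Hk2, Iars, Gclc and Fam134c held when any 1 sample of the compared groups was left out.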

How the results depend on the processing

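Over the named genes, leaving out each of the 8 samples in turn kept direction and call in 969 of 992 values, with 4 calls lost, all of Slc7a11, 12 gained and 7 that turned sign without passing the test in either fit. These were of Hspa5 (range -0.01 to 0.18), Xbp1 (-0.09 to 0.02), Cdkn1a (-0.25 to 0.00) and Eif3c (-0.03 to 0.05). The count of genes higher ran from 1689 to 2249 and of genes lower from 2934 to 3464. With the replicate number as a block 2092 genes were higher and 3499 lower, and without a sample term 2170 and 3633. Same-numbered control and inhibitor samples did not deviate together (-0.128 to 0.167), and the block gained the calls of Ifrd1 and Eif4a2 (adjusted p = 0.0281 and 0.039 by edgeR). Without the filter 1939 were higher and 3127 lower, and with the 2 conditions alone 1977 and 3246. Over the other settings 910 of 992 values kept direction and call, 24 lost the call, 22 gained it and 36 turned sign, 13 of these uncalled in both fits. Xbp1 turned with DESeq2 size factors (0.06), coding length offsets (0.08) and DESeq2 (0.06), and coding length offsets also turned Slc7a1 (0.03) and Slc35a4 (0.00). The other turns of named genes were by partial variance, which gave 3380 genes higher: Ddit3 1.01, Eif2ak3 0.21, Slc7a11 -2.74, Atf5 0.57, Slc35a4 0.60, Dusp1 0.04, Eef2 0.28, Pabpc1 0.16, Eif2d 0.09, Hk2 -0.27, Tpi1 0.08, Iars -0.70, Tnc -1.41, Fn1 -1.25, Vcl -0.40, Maff -1.55, Cenpe -0.29, Gclc -0.03, Txnip 3.78, Gpx4 0.01, Bst2 0.71, Rpl36al 0.74, Eif3b 0.24, Xbp1 0.21, Naca 0.25, Fau 0.21, Rplp1 0.38, Rpl36 0.15, Rps27l 0.82, Eif4a2 -0.12 and Eif3c -0.10. It also turned the medians of glycolytic enzymes (0.08), respiratory chain (0.16), mitochondrial ribosomal proteins (0.31) and DNA replication (0.40). The medians of factors around eIF2 (0.22), NRF2 and defence genes (0.16) and mitochondrial chaperones (0.04) turned with it as well. So did those of the lists named above whose counts turned to mostly higher. The cause was not tested beyond its slope near 0 on the cytosolic level. The median of matrix genes turned with DESeq2 size factors (0.01), coding length offsets (0.01) and DESeq2 (0.04). That of factors around eIF2 turned with the same settings (0.06, 0.02 and 0.06). Contractile genes turned with DESeq2 size factors and DESeq2 (0.02 each). With coding length offsets the medians of heat shock proteins and autophagy genes also turned (0.01 each). Genes under 1 CPM, such as Prkch, are limited by depth.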
